A study of Mus musculus with 6 samples.

Results

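The SLC25 proteins are the mitochondrial carriers, the largest family of solute transporters. Each is a small protein built from repeated pairs of membrane-spanning helices, and most sit in the inner mitochondrial membrane, where they exchange nucleotides, phosphate, carboxylates, amino acids, cofactors or iron between the cytosol and the matrix. In kidney epithelium, whose transport work is fuelled largely by oxidative phosphorylation, the ADP/ATP and phosphate carriers feed the ATP synthase. The carriers described here are the rows of the authors' deposited table that name 1 gene and whose symbol begins with Slc25a, which gave 47 of the 37291 rows naming 1 gene. No row naming several genes held such a symbol. Of the 47 members 41 were tested by the authors and 6 were not.

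Kidney epithelium of C57/Bl6J mice, taken at 8 weeks of age, was the source of the cells. Both groups carry the genotype Bim-/- Bmf-/-, the loss of a pair of BH3-only genes that promote apoptosis, and no group without these deletions was analysed here. In 1 group the cells stayed attached (3 libraries) and in the other they were held in suspension for 4 h (3 libraries, titled Anoikis, a name for death upon detachment). The comparison asks which transcripts differ between these states. The authors' deposited table holds 1 FPKM per gene and condition (fragments scaled to transcript length and to library size), with the authors' own fold change, p and q. Whether each library is its own culture or animal is not stated in the labels, and the authors' p may therefore reflect only technical spread. No value per library was analysed here, so no SD can be given, the depth is unknown, and a q below 0.05 is the only measure of error behind the words rose and fell. The columns end in A and S, and S was read as suspension.

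Across the series, the authors' deposited table called 51.1% of the tested rows naming 1 gene, 24.8% higher and 26.3% lower in suspension. The median log2 fold change was -0.11 over rows of at least 1 FPKM in each condition, so a small negative value lies near the middle of such rows. Over all tested rows naming 1 gene it was -0.04. Of the genes labelled as deleted, Bcl2l11 (Bim) was listed at 9.53 FPKM attached and 51.4 FPKM suspended per the authors' deposited table, and Bmf at 2.95 and 4.30 FPKM. These are sums over all exons of each gene, so they do not check the genotype. Of 15 kidney epithelial markers 9 reached 1 FPKM in at least 1 condition, and the segment markers Lrp2, Cubn, Umod, Slc12a1, Slc12a3 and Aqp2 were all below 1 FPKM in both, Aqp2 at 0. The water channel Aqp1, of the proximal tubule and thin limb, was abundant and fell from 79.1 to 11.8 FPKM (log2 fold change -2.74, q = 0.000185) per the authors' deposited table. Pax2 fell from 150 to 30.9 FPKM and Pax8 from 104 to 37.1 FPKM (both q = 0.000185), per the same source. Cdh1 rose from 95.4 to 201 FPKM (q = 0.000185). The other kidney markers called higher were Krt8 and, below 1 FPKM in both conditions, Cubn and Slc12a1. The marker sums, attached and then suspended, were 2583 and 2320 FPKM for kidney epithelium (4 of 11 tested called higher, 6 lower), 24.97 and 47.5 for 6 leukocyte genes (2 of 2 higher) and 4.13 and 20.5 for 4 podocyte genes (2 of 2 higher). They were 0.225 and 1.97 FPKM for 6 fibroblast genes (1 of 1 higher) and 0.357 and 0.303 FPKM for 5 endothelial genes (none tested). Defining markers at 0 in both conditions were Emcn for endothelium and Col3a1 for fibroblasts, while Nphs1 of podocytes was at 0 attached and under 1 FPKM suspended. The leukocyte genes called higher were Ptprc (1.42 to 12.4 FPKM) and Cd68 (23.4 to 34.9 FPKM) per the authors' deposited table. The podocyte genes called higher were Podxl (1.60 to 7.87 FPKM) and Synpo (2.53 to 12.6 FPKM). Pdgfra of the fibroblast genes went from 0.155 to 1.81 FPKM, and all of these had q = 0.000185. Rows of the mitochondrial genome summed to 31198 FPKM attached and 68368 FPKM suspended, with 3 of 10 tested called, all higher. The part that these values play in the changes of the carriers was not tested. In bulk RNA, fewer cells of a type and less RNA per cell cannot be told apart.

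More carriers fell than rose, as was so by a smaller margin among all tested rows naming 1 gene. Of the 41 tested, 16 fell, 8 rose and 17 were not called per the authors' deposited table, that is 39.0% lower and 19.5% higher, beside 26.3% and 24.8% of all tested rows naming 1 gene. Over rows with at least 1 FPKM in both conditions the background was 53.5% called, 30.9% lower and 22.6% higher. The 37 tested carriers at that level had 15 lower (40.5%) and 7 higher (18.9%) calls. The shares of carriers are read only beside these backgrounds and no test of the family was made. The median log2 fold change of the 41 was -0.23, against -0.04 for all tested rows naming 1 gene, and was -0.13 after rescaling to the median of rows with at least 1 FPKM in each condition. The values ran from -2.56 to 1.04. Of the 41 tested carriers 6 were called lower and 2 higher by at least 2-fold, beside 7.16% and 12.5% of all tested rows. Of the 37 with at least 1 FPKM in both conditions 5 were lower and 1 higher, beside 813 and 878 of 11388 such rows. Most changes in the family were therefore smaller than 2-fold, and the smallest one called was that of Slc25a3. The summed level of the 47 members was 1805 FPKM attached and 1447 FPKM suspended, 1.25-fold higher attached. The sum over all tested rows naming 1 gene was 1.03-fold higher attached.

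**Figure D1:**
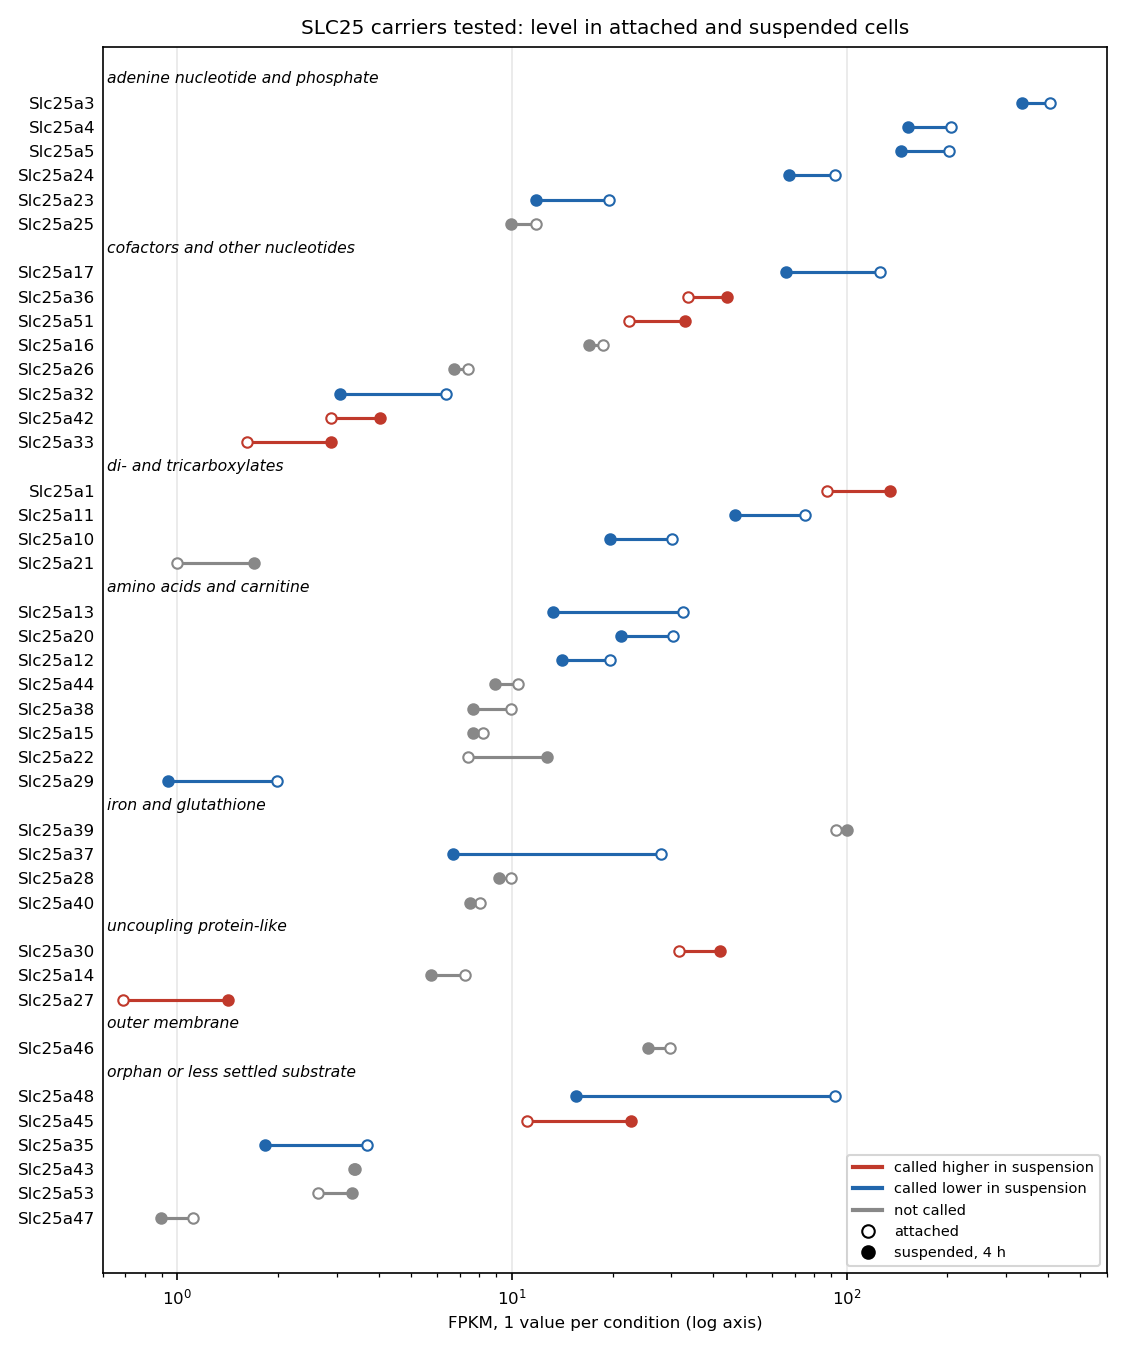
Each row is a tested SLC25 carrier (1 is not drawn), placed by its FPKM per the authors' deposited table on a log axis. Carriers are grouped by the solutes they move, or by likeness to uncoupling proteins, place in the outer membrane or a less settled solute. Open circles are attached and filled circles suspended for 4 h (1 value per condition, no error bars). Lines are red for genes called higher, blue for lower and grey for not called. Slc25a48 and Slc25a37 have the longest lines, from 92.1 to 15.6 and from 28.0 to 6.66 FPKM, and every tested adenine nucleotide and phosphate carrier lies lower in suspension, with Slc25a25 in grey.

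The order of levels was led by the carriers of oxidative phosphorylation in both conditions. Slc25a3, Slc25a4 and Slc25a5 ranked 1, 2 and 3 attached and again suspended, and together held 45.0% of the family's summed FPKM attached and 43.6% suspended. Slc25a17 ranked 4 attached and 7 suspended, while Slc25a1 went from 8 to 4. Slc25a48 ranked 7 attached and 17 suspended, and Slc25a37 went from 16 to 30. Whether neighbours in this order differ beyond the spread of the libraries cannot be said from 1 value per condition. At the other end, 6 members were not tested and none of them exceeded 0.153 FPKM: Slc25a2 (ornithine), Slc25a18 (glutamate), Slc25a31 (an ADP/ATP carrier of the testis), Slc25a34, Slc25a41 and Slc25a54. Slc25a41 was listed at 0 attached and Slc25a54 at 0 suspended.

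Of the adenine nucleotide and phosphate carriers 5 of 6 tested fell and none rose. The counts of this group and of the groups below rest on few genes each. They are to be read beside 26.3% lower and 24.8% higher among all tested rows naming 1 gene. Of such rows with a mean of at least 20 FPKM, 37.8% were called lower and 21.6% higher. Slc25a3 (chromosome 10, positions 91116574 to 91124059), which imports the phosphate used for ATP synthesis, was the most abundant member of the family. It was listed at 405 FPKM attached and 333 FPKM suspended per the authors' deposited table, a fall of small size (log2 fold change -0.28, or -0.17 after the same rescaling, q = 0.0217). Slc25a4 (chromosome 8, positions 46206797 to 46211284) and Slc25a5 (chromosome X, positions 36795651 to 36798807) encode ADP/ATP translocases, which export ATP from the matrix in exchange for ADP. Slc25a4 fell from 206 to 153 FPKM (log2 fold change -0.43, q = 0.000185) and Slc25a5 from 202 to 145 FPKM (log2 fold change -0.48, q = 0.000185) per the authors' deposited table. The q of 0.000185 is the smallest per the authors' deposited table and is shared by 13 of the 41 tested carriers, 11 that fell and 2 that rose, and by 29.1% of all tested rows naming 1 gene. These ADP/ATP translocases thus stood at nearly the same level in each condition, with a ratio of Slc25a4 to Slc25a5 of 1.02 attached and 1.05 suspended.

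The start of both coding sequences shows how alike the translocases are, and where reads can still tell them apart. Their coding regions, both 894 bases without the stop codon, are 77.4% identical in the GENCODE M21 transcripts (GRCm38). Below are the first 120 coding bases of each, with the 26 positions that differ in capitals.
Slc25a4: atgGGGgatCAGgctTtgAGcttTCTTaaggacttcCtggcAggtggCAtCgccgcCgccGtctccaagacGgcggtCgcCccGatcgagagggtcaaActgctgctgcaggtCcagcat
Slc25a5: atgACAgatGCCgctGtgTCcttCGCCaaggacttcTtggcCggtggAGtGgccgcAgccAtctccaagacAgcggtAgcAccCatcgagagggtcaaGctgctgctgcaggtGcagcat
No stretch of 50 bases in the Slc25a4 transcripts occurs in a transcript of another gene. In Slc25a5 33.8% of the distinct stretches of 50 bases also occur in 9 other genes, most in Gm5560, so its level depends on how the authors placed such reads, a step no source used here describes.

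The remaining members of this group carry ATP-Mg in exchange for phosphate and so set the size of the matrix adenine nucleotide pool, some of them under the control of calcium. Slc25a24 (chromosome 3, positions 109123149 to 109168457) fell from 92.3 to 67.5 FPKM (log2 fold change -0.45, q = 0.000185) per the authors' deposited table. Slc25a23 (chromosome 17, positions 57041775 to 57065918) fell from 19.6 to 11.8 FPKM (log2 fold change -0.73, q = 0.00295) per the authors' deposited table. Slc25a25 was listed at 11.8 and 9.98 FPKM per the authors' deposited table and was not called (q = 0.255).

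Carriers of cofactors and other nucleotides moved in both directions, 4 of 9 higher and 2 lower per the authors' deposited table. Slc25a36 and Slc25a33 import pyrimidine nucleotides, which mitochondria need to make their DNA and RNA. Slc25a36 (chromosome 9, positions 97075597 to 97111157) rose from 33.6 to 43.9 FPKM (log2 fold change 0.39, q = 0.0103), and Slc25a33 (chromosome 4, positions 149744036 to 149774277) from 1.62 to 2.88 FPKM (log2 fold change 0.83, q = 0.00157), per the authors' deposited table. An antisense gene, Gm13068, covers 14.9% of the exon bases of Slc25a33, so that value is uncertain where strand was not counted. Slc25a51, the carrier of NAD (chromosome 4, positions 45395923 to 45408766), rose from 22.4 to 33.0 FPKM (log2 fold change 0.56, q = 0.00113), and Slc25a42, a carrier of coenzyme A, from 2.89 to 4.03 FPKM (log2 fold change 0.48, q = 0.0162), per the authors' deposited table. Slc25a17 (chromosome 15, positions 81318921 to 81360765), the family's peroxisomal carrier of coenzyme A, FAD and NAD, went the other way, from 126 to 66.1 FPKM (log2 fold change -0.93, q = 0.000185), per the authors' deposited table. Slc25a32, which brings folate and FAD into mitochondria, fell from 6.36 to 3.07 FPKM (log2 fold change -1.05, q = 0.000185) per the authors' deposited table. The carrier of S-adenosylmethionine (Slc25a26, 7.42 and 6.72 FPKM) and Slc25a16 (18.7 and 17.0 FPKM), a relative of Slc25a42, were not called per the authors' deposited table.

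The carboxylate carriers did not share a direction, with 1 of 4 called higher, 2 lower and 1 not called. Slc25a1 (chromosome 16, positions 17925211 to 17928219), the citrate carrier that supplies acetyl units for lipid synthesis in the cytosol, rose from 87.6 to 135 FPKM (log2 fold change 0.62, q = 0.000185) per the authors' deposited table. Slc25a11, which exchanges oxoglutarate for malate in the malate-aspartate shuttle, fell from 75.4 to 46.5 FPKM (log2 fold change -0.70, q = 0.000185) per the authors' deposited table. Exons of Rnf167 on the opposite strand cover 8.92% of the exon bases of Slc25a11. For Slc25a10 an antisense gene, Gm11788, covers 6.60%. This dicarboxylate carrier fell from 30.03 to 19.7 FPKM (log2 fold change -0.61, q = 0.000185) per the authors' deposited table. Slc25a21, a carrier of oxodicarboxylates, stood at 0.999 and 1.70 FPKM and was not called (q = 0.444) per the authors' deposited table.

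Carriers of amino acids and carnitine were called lower in 4 of 8 tested cases and higher in none. The aspartate/glutamate carriers, the other membrane step of the malate-aspartate shuttle, both fell. Slc25a13 (citrin, chromosome 6, positions 6041218 to 6217118) went from 32.5 to 13.3 FPKM (log2 fold change -1.29, q = 0.000185) and Slc25a12 (aralar, chromosome 2, positions 71271063 to 71367749) from 19.7 to 14.2 FPKM (log2 fold change -0.48, q = 0.0188) per the authors' deposited table. Slc25a13 was thus 1.65 times the level of Slc25a12 in attached cells and 0.937 times in suspended cells. Slc25a20, which brings acylcarnitines into mitochondria for fatty acid oxidation, fell from 30.4 to 21.2 FPKM (log2 fold change -0.51, q = 0.000185) per the authors' deposited table. Slc25a29, a carrier of basic amino acids, fell from 1.98 to 0.943 FPKM (log2 fold change -1.07, q = 0.000518) per the authors' deposited table. Slc25a38, the glycine carrier used for haem synthesis, lay just past the threshold at 9.96 and 7.64 FPKM (q = 0.0534) per the authors' deposited table. Slc25a22 for glutamate had a higher level in suspension without being called (7.39 and 12.7 FPKM, q = 0.104), and Slc25a15 for ornithine (8.23 and 7.68 FPKM) and Slc25a44 for branched-chain amino acids (10.5 and 8.90 FPKM) were not called either per the authors' deposited table.

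Among iron and glutathione carriers 1 of 4 was called. Slc25a37 (mitoferrin-1, chromosome 14, positions 69241848 to 69305355) imports iron for haem and iron-sulfur clusters. It fell from 28.0 to 6.66 FPKM per the authors' deposited table, 4.21-fold (log2 fold change -2.07, q = 0.000185), the second largest fall among the tested members. Of its distinct stretches of 50 bases 6.99% also occur in other genes, and antisense transcripts overlap its exons. Its paralogue Slc25a28 (mitoferrin-2) was listed at 9.96 and 9.15 FPKM per the authors' deposited table and was not called (q = 0.537). Mitoferrin-1 was therefore 2.81 times the level of mitoferrin-2 in attached cells and 0.727 times in suspended cells, and the difference between their responses was not tested. The glutathione carriers Slc25a39 (92.8 and 100.2 FPKM, q = 0.441) and Slc25a40 (8.04 and 7.496 FPKM, q = 0.605) were not called per the authors' deposited table.

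Of the members that resemble uncoupling proteins, 2 of 3 rose. Slc25a30 went from 31.6 to 41.9 FPKM (log2 fold change 0.41, q = 0.00113) and Slc25a27 from 0.691 to 1.42 FPKM (log2 fold change 1.04, q = 0.000831) per the authors' deposited table. Slc25a14 stood at 7.24 and 5.75 FPKM and was not called (q = 0.179) per the authors' deposited table. Slc25a46, which lies in the outer membrane and takes part in mitochondrial dynamics, was not called at 29.8 and 25.6 FPKM (q = 0.0962) per the authors' deposited table.

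The largest fall of the family was in a member whose solute is less settled. Slc25a48 (chromosome 13, positions 56438355 to 56474239), which has been linked to choline, fell from 92.1 to 15.6 FPKM per the authors' deposited table, 5.90-fold (log2 fold change -2.56, q = 0.000185). Slc25a45 (chromosome 19, positions 5877808 to 5885766) rose from 11.1 to 22.7 FPKM per the authors' deposited table, 2.05-fold (log2 fold change 1.03, q = 0.000185). Slc25a35 was listed at 3.71 and 1.83 FPKM and was called lower (q = 0.00451) per the authors' deposited table, but exons of Rangrf on the opposite strand cover 31.3% of its exon bases, so the value is uncertain. Slc25a43 (3.37 and 3.40 FPKM), Slc25a47 (1.12 and 0.898) and Slc25a53 (2.65 and 3.33 FPKM) were not called per the authors' deposited table.

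**Figure D2:**
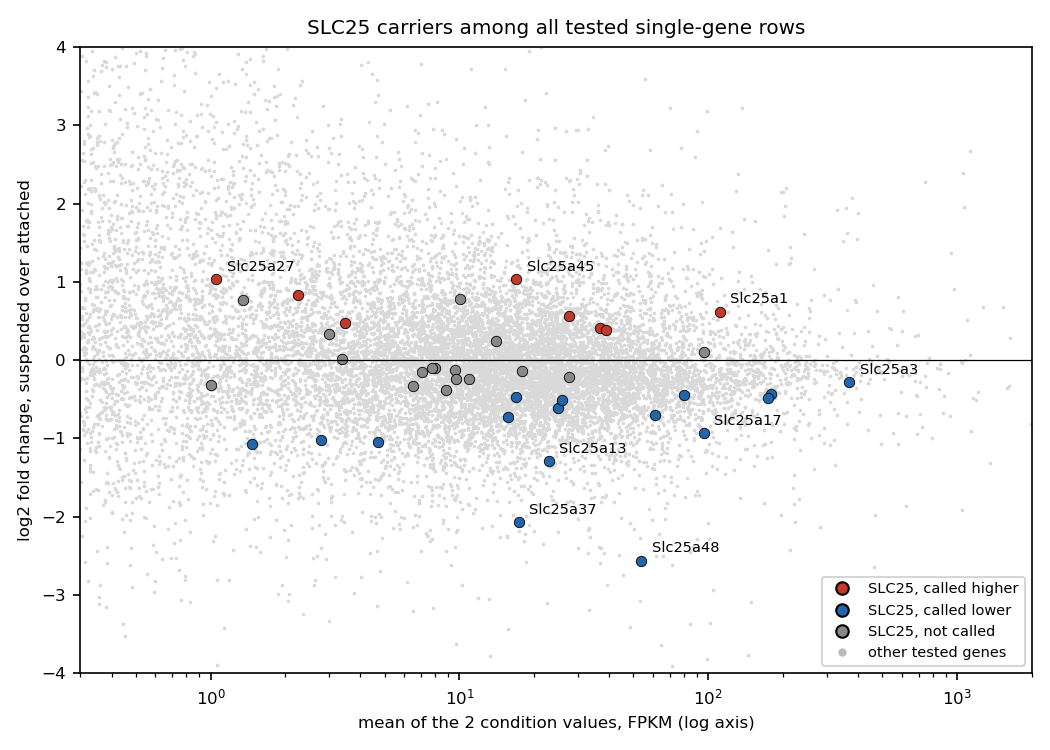
The log2 fold change (suspended over attached) per the authors' deposited table is plotted against the mean FPKM of both conditions on a log axis for tested rows naming 1 gene (grey, 13608 of them inside the plotted range and 755 outside it) and for the 41 tested SLC25 carriers (coloured by call). Of the 16 carriers with a mean of at least 20 FPKM only 2 are grey, and Slc25a48 and Slc25a37 lie lowest.

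Calls were also counted by level. Of 16 carriers with a mean of at least 20 FPKM, 10 were called lower, 4 higher and 2 not called, while 37.8% of all tested rows naming 1 gene in that range were called lower and 21.6% higher. Of 15 carriers between 5 and 20 FPKM 3 were called lower, 1 higher and 11 were not called, beside 30.2% lower and 24.0% higher among all such rows. The 10 tested carriers below 5 FPKM had 3 calls in each direction, beside 12.6% lower and 28.3% higher among all such rows.

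Related carriers were set side by side in 15 pairs, of which 12 had both genes tested. Both members fell in Slc25a4 and Slc25a5, Slc25a12 and Slc25a13, Slc25a23 and Slc25a24, Slc25a10 and Slc25a11, and Slc25a20 and Slc25a29, and both rose in Slc25a33 and Slc25a36. The coding identity of these pairs ran from 57.1% (Slc25a10 and Slc25a11) to 77.4% (Slc25a4 and Slc25a5). In 5 pairs 1 gene was called and the other was not, as for the mitoferrins, whose coding sequences are 72.4% identical, and for Slc25a14 and Slc25a30, which are 72.2% identical. In no pair were the members called in opposite directions, and no difference within a pair was tested.

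**Figure D3:**
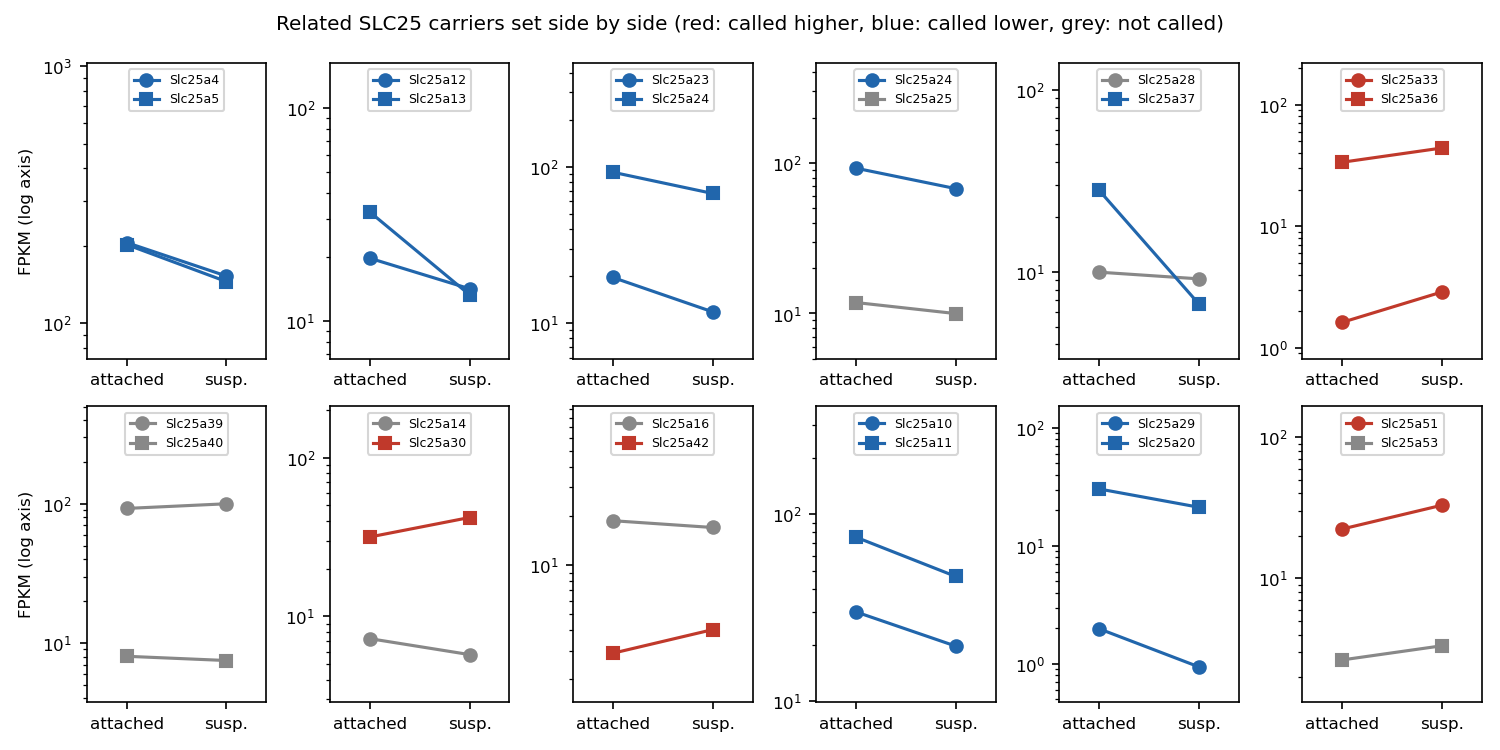
Each panel shows a pair of related carriers with both genes tested, with FPKM in attached and suspended cells (1 value per condition per the authors' deposited table) on log axes whose range differs between panels; red lines were called higher, blue lower and grey not called. The lines of Slc25a28 and Slc25a37 cross, and so do those of Slc25a12 and Slc25a13, while Slc25a4 and Slc25a5 nearly coincide.

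Promoter sequence is shown for carriers that carry the main results: the phosphate carrier and the ADP/ATP translocases, which all fell, Slc25a48 with the largest fall, citrin, and the citrate carrier that rose. The windows run from 250 bases before to 50 bases after a RefSeq transcript start (GRCm38.p6), and 36 of the 47 members, 32 of them tested, were matched by symbol. All 7 motifs were searched on both strands. They were GCGCANGCG for NRF1, a regulator of nuclear genes for mitochondria, CACGTG, the E-box bound by MYC and related factors, CCGGAAG for ETS factors, TGANTCA for AP-1, TGACNNNGC for the antioxidant response element, TGTTTAC for FOXO factors and TCACNCCAC for the sterol regulatory element. Matches are in capitals.
Slc25a3, chr10:91123918-91124217, minus strand: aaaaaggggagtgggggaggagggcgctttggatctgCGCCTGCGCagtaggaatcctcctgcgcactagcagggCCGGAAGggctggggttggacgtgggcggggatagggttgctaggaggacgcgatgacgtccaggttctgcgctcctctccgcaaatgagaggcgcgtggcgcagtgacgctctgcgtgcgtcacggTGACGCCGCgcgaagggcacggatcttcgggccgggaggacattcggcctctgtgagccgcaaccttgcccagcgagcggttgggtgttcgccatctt
Slc25a4, chr8:46211013-46211312, minus strand: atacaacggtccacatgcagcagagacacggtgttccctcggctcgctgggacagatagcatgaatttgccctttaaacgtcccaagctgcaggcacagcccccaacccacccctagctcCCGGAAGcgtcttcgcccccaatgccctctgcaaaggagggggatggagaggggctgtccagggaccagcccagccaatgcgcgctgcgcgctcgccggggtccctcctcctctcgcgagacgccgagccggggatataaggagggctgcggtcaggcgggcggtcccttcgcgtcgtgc
Slc25a5, chrX:36795347-36795646, plus strand: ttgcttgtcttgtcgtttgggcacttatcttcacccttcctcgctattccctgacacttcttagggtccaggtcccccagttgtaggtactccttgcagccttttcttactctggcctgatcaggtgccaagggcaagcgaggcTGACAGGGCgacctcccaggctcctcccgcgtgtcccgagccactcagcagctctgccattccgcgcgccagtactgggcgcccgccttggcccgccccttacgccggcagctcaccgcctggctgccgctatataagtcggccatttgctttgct
Slc25a48, chr13:56438105-56438404, plus strand: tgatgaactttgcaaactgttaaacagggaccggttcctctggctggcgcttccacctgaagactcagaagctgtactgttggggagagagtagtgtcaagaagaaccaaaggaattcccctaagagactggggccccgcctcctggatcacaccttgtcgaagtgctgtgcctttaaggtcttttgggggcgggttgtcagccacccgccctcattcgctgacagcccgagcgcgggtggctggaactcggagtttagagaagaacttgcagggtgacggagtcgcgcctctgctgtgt
Slc25a13, chr6:6217124-6217423, minus strand: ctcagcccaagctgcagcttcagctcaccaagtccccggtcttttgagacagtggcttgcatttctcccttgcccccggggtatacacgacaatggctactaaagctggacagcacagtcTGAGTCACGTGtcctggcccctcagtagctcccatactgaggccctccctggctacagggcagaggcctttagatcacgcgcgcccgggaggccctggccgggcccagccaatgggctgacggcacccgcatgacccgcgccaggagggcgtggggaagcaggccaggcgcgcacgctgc
Slc25a1, chr16:17928170-17928469, minus strand: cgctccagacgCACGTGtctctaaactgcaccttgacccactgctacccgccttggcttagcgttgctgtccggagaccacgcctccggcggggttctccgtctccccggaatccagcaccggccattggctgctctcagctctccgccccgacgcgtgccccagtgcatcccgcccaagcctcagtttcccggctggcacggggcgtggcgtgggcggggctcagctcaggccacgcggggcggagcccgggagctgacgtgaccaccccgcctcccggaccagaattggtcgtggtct
The Slc25a3 window holds NRF1, ETS and antioxidant response element matches. The Slc25a4 window holds an ETS match and the Slc25a5 window an antioxidant response element match, so the windows of these translocases shared none of the motifs searched. In the Slc25a13 window an AP-1 match and an E-box overlap. The Slc25a1 window holds an E-box and that of Slc25a48 holds none of the 7 motifs. A match is a description of letters and not a site of binding.

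Over the 32 tested members with a window, an E-box stood in 6 (18.8%), beside 8.09% of all 27025 genes with windows and 11.6% of those tested here. Its holders were Slc25a1, Slc25a33 and Slc25a36, which rose, Slc25a13, which fell, and Slc25a14 and Slc25a15, which were not called. The ETS motif stood in 6 members (18.8%), beside 9.93% of all genes and 19.2% of tested ones: Slc25a3, Slc25a4, Slc25a17 and Slc25a20, which fell, and Slc25a25 and Slc25a38, which were not called. The AP-1 motif stood in Slc25a11 and Slc25a13 (6.25% of the 32, beside 8.97% of all genes and 6.53% of tested ones), both of which fell. The antioxidant response element stood in 9 members (28.1%, beside 14.0% of all genes and 17.0% of tested ones), of which 1 rose, 3 fell and 5 were not called. The NRF1 motif stood in Slc25a3 alone among the 32 (3.12%, beside 7.03% of all genes and 14.8% of tested ones). No window of a tested member held the FOXO or sterol motif, which stood in 4.05% and 1.44% of all genes and 3.18% and 1.42% of tested ones. The median share of G and C bases in the windows was 60.7% for the 32 tested members and 52.7% for all 27025 genes. Its part in the shares of motifs was not tested.

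Genes that work with the carriers were looked at through 8 lists. Of 5 relatives under other symbols 3 were tested and 2 fell per the authors' deposited table. They were Ucp2, an uncoupling protein (294 to 158 FPKM, q = 0.000185), and Mtch1, a relative in the outer membrane (104 to 86.8 FPKM, q = 0.0420). Carriers reach the inner membrane through the TOM pore, the small TIM chaperones and the TIM22 complex. Of 14 tested genes of this import route 9 (64.3%) fell and none rose (median log2 fold change -0.40), beside 26.3% lower and 24.8% higher among all tested rows. Most of these genes had a mean of at least 20 FPKM, where 37.8% of all tested rows naming 1 gene were lower and 21.6% higher. Timm9, a small TIM chaperone of carriers, fell from 18.0 to 5.34 FPKM (q = 0.000185) and Tomm40, the pore, from 56.1 to 25.5 FPKM (q = 0.000355) per the authors' deposited table. Timm22, the insertion channel, fell from 25.6 to 15.0 FPKM (q = 0.00241) and Tomm5 from 32.9 to 18.9 FPKM (q = 0.000185) per the authors' deposited table.

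The enzymes beside the carriers did not follow a single direction, and the shares of each list are to be read beside 26.3% lower and 24.8% higher among all tested rows naming 1 gene. Of 11 shuttle and citrate-using enzymes 6 (54.5%) fell and 1 (9.09%) rose (median log2 fold change -0.30), among them the cytosolic malic enzyme Me1 (344 to 214 FPKM) and Gpd1 (44.3 to 20.04 FPKM), both with q = 0.000185 per the authors' deposited table. Fasn, the fatty acid synthase that uses exported acetyl units, fell from 39.5 to 22.8 FPKM (q = 0.000518) while the citrate carrier rose, and the mitochondrial glycerol phosphate dehydrogenase Gpd2 rose from 25.7 to 39.4 FPKM (q = 0.000185) per the authors' deposited table. Of 10 genes of carnitine and fatty acid entry and oxidation 4 rose and 2 fell (median log2 fold change -0.00029). Those that rose belong to the carnitine acyltransferases, and those that fell, Acadvl and Hadha, encode enzymes of fatty acid oxidation. Cpt1a, which makes the acylcarnitines that Slc25a20 imports, rose from 28.3 to 65.3 FPKM, and Crot, a peroxisomal acyltransferase, from 28.7 to 58.1 FPKM (both q = 0.000185) per the authors' deposited table, so Cpt1a rose where Slc25a20 fell. Of 6 genes that use folate or make S-adenosylmethionine 5 fell and none rose (median log2 fold change -1.14). Mat2a, which makes S-adenosylmethionine, fell from 107 to 30.1 FPKM, and the mitochondrial folate enzymes Mthfd2 from 64.0 to 22.6 and Shmt2 from 61.6 to 26.4 FPKM (all q = 0.000185), per the authors' deposited table, beside the fall of the folate carrier Slc25a32.

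Of 11 tested iron-sulfur and haem genes 4 (36.4%) fell and 2 (18.2%) rose, near the 26.3% and 24.8% of all tested rows (median log2 fold change -0.16), with Cpox, a haem enzyme, going from 54.1 to 18.2 FPKM (q = 0.000185) per the authors' deposited table. Other mitochondrial membrane transport genes had 6 of 18 (33.3%) lower and 4 (22.2%) higher, near the same background (median log2 fold change -0.11). Sfxn1, a serine carrier, fell from 37.2 to 21.2 FPKM (q = 0.000185) per the authors' deposited table, while its relative Sfxn3 rose from 32.3 to 45.1 FPKM (q = 0.000185). Of 10 tested regulators of mitochondrial biogenesis 3 rose and 2 fell (median log2 fold change -0.16). The coactivator Ppargc1a rose from 1.03 to 6.90 FPKM and its relative Pprc1 fell from 15.6 to 4.45 FPKM (both q = 0.000185) per the authors' deposited table.

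**Figure D4:**
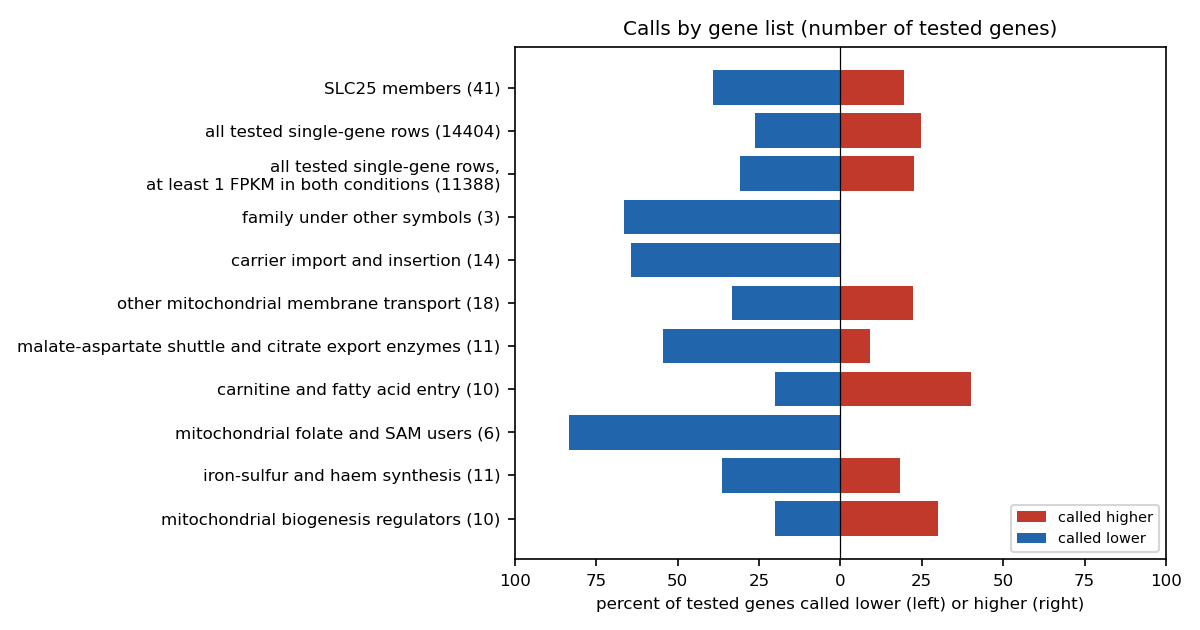
Bars give the percent of tested genes called lower (left, blue) and higher (right, red) per the authors' deposited table for the SLC25 carriers, all tested rows naming 1 gene and the 8 other lists, with the number of tested genes in brackets and no error bars. The import route and the folate and S-adenosylmethionine genes have no red bar, and the carriers lie at 39.0% lower and 19.5% higher.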

How the data were processed

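Messenger RNA of 6 libraries (3 attached, 3 suspended) was sequenced on an Illumina HiSeq, per the labels' protocols. The submitters' processing notes list mm10 as the build and, as tools, Bowtie, TopHat, Cuffdiff and Cufflinks 1.0.3. Settings, annotation and strand use: not given in the sources used here. For each condition the authors deposited 1 FPKM per row. The q-value, p-value, test score and log2 fold change come from the authors' comparison, per the file headers. Untested rows stand at q = 1.

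Calls are the authors' q below 0.05 over all tested rows. No test was run on libraries, and replicate-based alternatives were not possible. The members, lists and rule for named genes (every member, and up to 4 called genes per other list that reached 5 FPKM) were chosen with earlier results of these data known. Older symbols were matched through RefSeq synonyms. Of the other lists, 5 genes stand in rows naming several genes and 1 was unmatched. Values of 1 tested carrier and of 3 genes of the other lists are not reported here, although the counts and sums include them. Positions are the deposited ones, counted from 1, and all 47 overlap the GENCODE M21 gene (GRCm38). Exon overlap and shared stretches of 50 bases, on either strand, came from GENCODE M21, and promoters from RefSeq (GRCm38.p6). Calculations were tested on simulated data. Python 3.11.15, NumPy 2.4.6, SciPy 1.17.1, pandas 2.3.3, matplotlib 3.10.9 and Biopython 1.88 were used.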

Additional observations from a re-analysis of the deposited data

How the results depend on the processing

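The counts of 8 carriers higher and 16 lower stayed within 1.5 times under a q below 0.01, a recomputed Benjamini-Hochberg adjustment, a minimum of 1 FPKM in both conditions and the addition of relatives under other symbols. A pseudocount of 1 or 0.1 leaves the deposited q and the sign as they are, so the counts could not change. Rescaling also leaves q as it is and can change only the sign of a call. It brought the median of the tested carriers from -0.23 to -0.13 and Slc25a3 from -0.28 to -0.17 (log2). Requiring a 2-fold change as well can only keep or lower a count, and 2 carriers were then higher and 6 lower. The shares of all tested rows naming 1 gene became 12.5% higher and 7.16% lower. More of all rows were thus higher than lower under this rule, while more carriers were lower. Rescaling reversed the sign of Slc25a15 (log2 fold change 0.0087) and Slc25a40 (0.0066), neither of which was called, and of no called member. Of the called members Slc25a27 (log2 fold change 1.04) and Slc25a29 (-1.07) were reduced by more than 1.5 times, to 0.52 and -0.62, when 1 FPKM was added to each value, as were Slc25a21 (0.77 to 0.43) and Slc25a47 (-0.32 to -0.16) of those not called. No paired analysis was possible because the table holds 1 value per condition. For the same reason leaving out each replicate, another test and another normalization were not run. Depth is unknown, so no limit of detection can be given for the 6 untested members.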

Other observations

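Some carriers lie next to each other in the genome, and their levels differed within these neighbourhoods. On chromosome 3 Slc25a54 ends 6.5 kb before Slc25a24 on the same strand. Slc25a24 was the 6th most abundant member in both conditions, while Slc25a54 was listed at 0.00747 and 0 FPKM per the authors' deposited table. On chromosome 17 Slc25a41 lies 2.1 kb from Slc25a23 in GENCODE M21 and 0.12 kb by the deposited positions. Both carry ATP-Mg, and Slc25a41 was not tested whereas Slc25a23 fell. On chromosome X Slc25a43 lies 18.4 kb from Slc25a5 and was not called whereas Slc25a5 fell. On chromosome 12 Slc25a29 and Slc25a47 start 0.2 kb apart on opposite strands in GENCODE M21 (15.2 kb by the deposited positions), and both were low, with Slc25a29 called lower and Slc25a47 not called. Whether the members of these neighbourhoods responded differently was not tested.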
